A study of Mus musculus with 8 samples.

Results

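The genes described here are 9 members of the Hoxa cluster, Hoxa2, Hoxa3, Hoxa4, Hoxa5, Hoxa6, Hoxa7, Hoxa9, Hoxa10 and Hoxa11, which lie side by side on the minus strand of mouse chromosome 6. They are 9 of 21938 protein-coding genes whose promoters, 1 kb on each side of any annotated transcription start site (TSS), were searched for peaks of histone H3 lysine 9 acetylation (H3K9ac). The interval of 105 kb that holds them (mm10) was chosen by the pattern of its peaks in these same lists. Coverage, fold enrichment and summit positions are therefore given as a description, with no test. Other annotated protein-coding genes of the interval are not described here.

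H3K9ac, a mark of active promoters and enhancers, was mapped by ChIP-seq in whole bone marrow (BM) cells of C57BL/6 mice that all carried the NUP98-HOXD13 transgene, a model of myelodysplastic syndrome (MDS) with progression to acute myeloid leukaemia (AML). The mice had 1 of 3 genotypes at the locus of GFI1, a zinc finger repressor of blood cell development. GFI1-36S is the common form with a serine that is replaced with asparagine in GFI1-36N, and GFI1-KD has reduced GFI1 expression. Each genotype was sampled after vehicle (DMSO; labelled as no curcumin) or 20 mg/kg curcumin, a natural histone acetyltransferase inhibitor injected intraperitoneally once a week, which made 6 libraries with 1 library per group. The labels give neither the age of the mice nor whether cells were pooled. With 1 library per group no difference between groups has a replicate check, and the intervals given below cover counting error only. BM is a mixture, so fewer cells of a type and less acetylation per cell cannot be told apart.

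Both GFI1-36S lists carry names in which the treatments are the opposite of those in the sample labels, and the labels were followed. The names of the GFI1-36N lists also carry a genotype code that differs between them, +ki for vehicle and kiki for curcumin, which the labels do not give, so treatment and this code cannot be told apart within GFI1-36N. The library labelled GFI1-36S curcumin stands apart from the other 5. It had the fewest peaks, 20354 against 30784 to 49213, and peaks at 13 of 14 T cell marker promoters and at 0 of 18 neutrophil marker promoters, where the others had 2 to 6 and 10 to 17. It was also the only library with promoter peaks at the Y-linked genes Kdm5d, Eif2s3y and Uty and the only one with none at Xist. Ddx3y, the other Y-linked gene looked at, had no promoter peak in any library. Comparisons of member counts between groups that rest on it are also given with the GFI1-36S treatments exchanged. The number of libraries that marked each member and the similarity of other genes to Hoxa9 include it. The genome background against which its peaks were called, after scaling to the control, was 4.56, inside the range of the others, 4.32 to 5.66. On that scale 1 fragment counted 0.991 in it and 0.84 to 1.0 in the others, so these values do not compare read depth. The promoter of Gfi1 itself had a peak in all 6 libraries, with 64 to 96 fragments at its summit.

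HOX genes encode homeodomain transcription factors that are arranged in clusters and are read out in the order in which they lie, the 3′ genes in early and anterior cells and the 5′ genes later. In blood, the middle and 5′ genes of the Hoxa cluster, Hoxa7, Hoxa9 and Hoxa10, are active in stem and progenitor cells and fall silent as cells mature. Persistent activity of Hoxa9 with its cofactors of the MEIS and PBX families is a known feature of AML, including disease driven by NUP98 fusions.

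The sequences below show where the acetylation was centred and how the CpG content of marked and unmarked members compared. The first is the 300 bp around the shared summit of the widest peak, at the junction of a coding exon and an intron of Hoxa7. It is followed by the stretch upstream of the TSS of Hoxa9, which lay under that peak, and of Hoxa6, which had no peak in any library. All are written 5′ to 3′ on the minus strand, with CpG dinucleotides in capitals. The promoter stretches are those of RefSeq (GRCm38.p6, the build of mm10), whose table matched 8 of the 9 members, Hoxa4 being the one not matched, and they are shown up to the first annotated untranslated base.
Hoxa7 summit, chr6:52216841-52217140: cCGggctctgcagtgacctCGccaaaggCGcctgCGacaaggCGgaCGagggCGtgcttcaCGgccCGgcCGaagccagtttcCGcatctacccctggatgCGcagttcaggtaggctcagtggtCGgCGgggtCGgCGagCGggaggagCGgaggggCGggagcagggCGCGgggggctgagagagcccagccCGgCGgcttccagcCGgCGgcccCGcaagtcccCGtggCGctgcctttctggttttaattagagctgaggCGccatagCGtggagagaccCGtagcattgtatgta
Hoxa9 upstream, chr6:52227371-52227620: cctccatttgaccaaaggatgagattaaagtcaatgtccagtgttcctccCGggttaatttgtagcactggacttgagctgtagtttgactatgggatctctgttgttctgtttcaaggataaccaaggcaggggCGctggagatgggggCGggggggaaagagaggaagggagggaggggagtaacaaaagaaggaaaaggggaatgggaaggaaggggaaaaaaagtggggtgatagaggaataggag
Hoxa6 upstream, chr6:52208723-52208922: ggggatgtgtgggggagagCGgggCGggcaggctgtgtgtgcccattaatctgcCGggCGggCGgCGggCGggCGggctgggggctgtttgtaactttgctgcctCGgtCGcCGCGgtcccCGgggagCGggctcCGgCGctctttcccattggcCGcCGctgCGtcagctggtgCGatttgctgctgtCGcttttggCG

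The Hoxa7 summit sequence held 31 CpGs in 300 bp with a GC content of 68.3%. Hoxa9 held 3 in the 250 bp shown, and Hoxa6 held 22 in 200 bp. Over whole 300 bp promoter windows, Hoxa9 had 4 CpGs, percentile 26.2 of 21229 coding promoters, and Hoxa6 had 26, percentile 78.4. The most CpG-rich member promoter was that of Hoxa5 with 29, and its window had no covered base in any library. CpG-rich and CpG-poor windows occurred on both sides. The covered windows of Hoxa9, Hoxa7 and Hoxa3 had 4, 9 and 20 CpGs, and the uncovered windows of Hoxa2, Hoxa10 (upstream start), Hoxa11, Hoxa6 and Hoxa5 had 9, 12, 15, 26 and 29. The window at the downstream start of Hoxa10, with 21 CpGs, was covered over 20.7% in GFI1-36S vehicle and 4.33% in GFI1-36N vehicle.

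Of the 9 members, 6 had a promoter peak in the GFI1-36S vehicle library, 1 in the library labelled GFI1-36S curcumin, and 5 in each of the GFI1-36N vehicle, GFI1-36N curcumin, GFI1-KD vehicle and GFI1-KD curcumin libraries. The corresponding shares over all 21938 promoters were 51.9%, 44.3%, 51.7%, 53.8%, 53.6% and 50.6%. In the 5 libraries other than GFI1-36S curcumin, 5 or 6 of 9 members is near that background. The peaks of the cluster were long in 4 of the libraries. They covered 29119 bp of the 105291 bp interval in GFI1-36S vehicle, 26816 bp in GFI1-36N vehicle, 24456 bp in GFI1-36N curcumin and 27311 bp in GFI1-KD curcumin, that is 27.7%, 25.5%, 23.2% and 25.9%. GFI1-KD vehicle had 8416 bp (7.99%), in more pieces than any other library, 14 peaks against 3 to 8. The library labelled GFI1-36S curcumin had 1607 bp (1.53%).

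**Figure D1:**
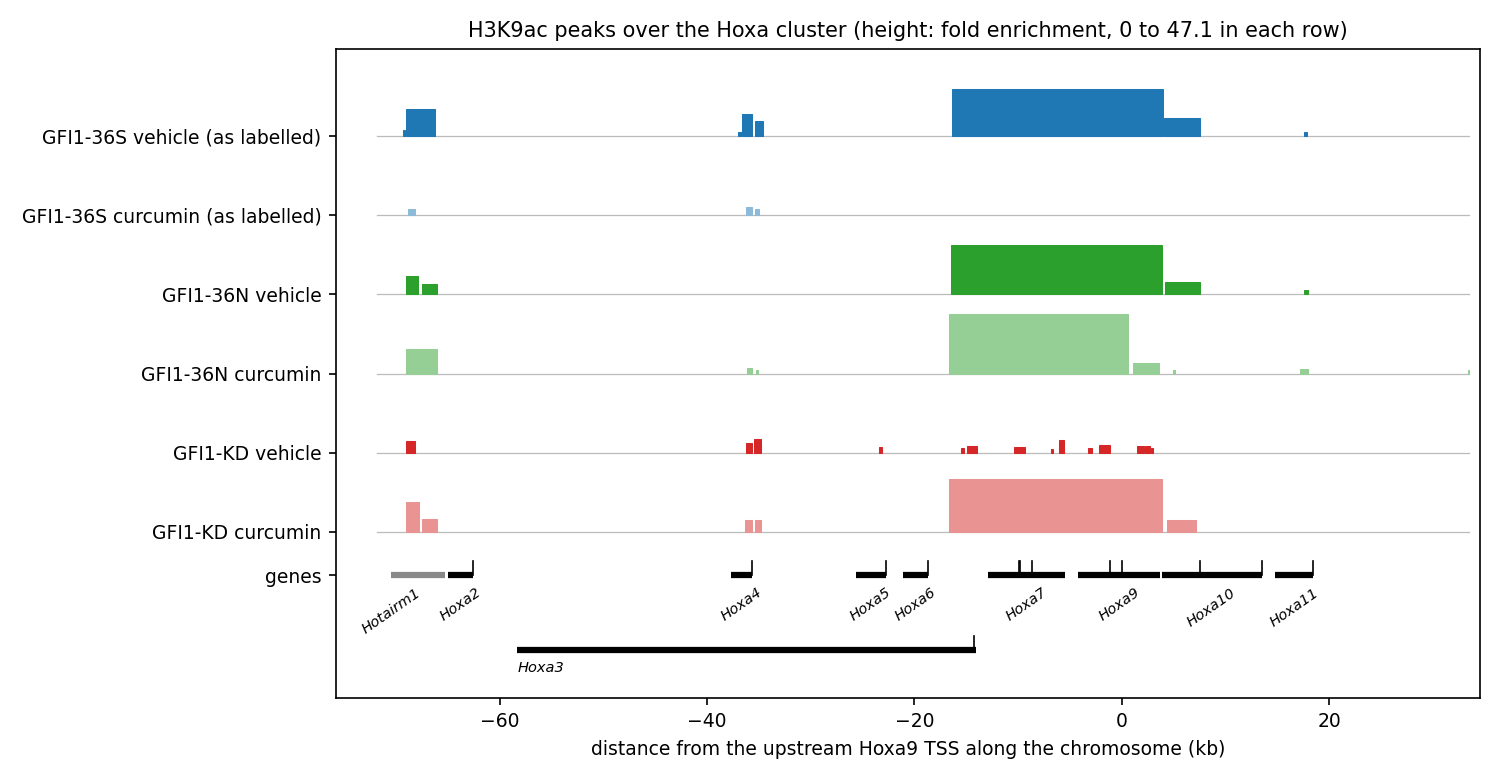
H3K9ac peaks over the Hoxa interval in the 6 libraries, drawn as boxes from start to end of each peak with the fold enrichment at the summit as height, against distance in kb from the upstream Hoxa9 TSS. Black bars are genes, ticks are TSSs, and the grey bar is the noncoding gene Hotairm1. A block of 17253 to 20528 bp over Hoxa3's TSS, Hoxa7 and Hoxa9 is seen in 4 libraries, 10 separate peaks in GFI1-KD vehicle, and none in the library labelled GFI1-36S curcumin.

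The members fell into 4 kinds by how many libraries marked their promoters. Hoxa3, Hoxa4, Hoxa7 and Hoxa9 had a promoter peak in 5 libraries, Hoxa10 and Hoxa11 in 3, Hoxa5 in 1, and Hoxa2 and Hoxa6 in none. This order does not follow position, as the bare Hoxa6 promoter lies between the marked promoters of Hoxa4 and Hoxa7.

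Most covered bases belonged to 1 stretch of 24.2 kb, chr6:52210728-52234951. It runs from the intron below the Hoxa3 TSS (52213115) across Hoxa7, Hoxa9 and the microRNA gene Mir196b to the downstream TSS of Hoxa10 (52234939). Hoxa3 spans much of the cluster, and its only TSS in the annotation used lies upstream of Hoxa6, so the mark over the Hoxa3 promoter is part of the same block. Peaks covered 98.4% of the stretch in GFI1-36S vehicle, 98.0% in GFI1-36N vehicle, 82.3% in GFI1-36N curcumin and 96.3% in GFI1-KD curcumin, but 24.3% in GFI1-KD vehicle and 0% in the library labelled GFI1-36S curcumin. The first 4 values were all above the other two.

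In those 4 libraries the stretch held a wide peak of 20292 bp (GFI1-36S vehicle), 20333 bp (GFI1-36N vehicle), 17253 bp (GFI1-36N curcumin) and 20528 bp (GFI1-KD curcumin). It was the widest peak of the whole list in 3 of them and ranked 3 among 49213 peaks in GFI1-36N curcumin. The median peak was 480 to 622 bp wide in these lists. The widest peak elsewhere was 13852 bp in GFI1-36S vehicle and 13459 bp in GFI1-36N vehicle, both at the same site on chromosome 8. In GFI1-KD curcumin it was a peak of 17785 bp at Pbx3, which encodes a HOX cofactor, at chr2:34355788-34373572. The widest Hoxa peak of GFI1-KD vehicle was 1088 bp, rank 12889 in its list.

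The edges and the summit of the wide peak were nearly the same in the 4 libraries. It started within a span of 310 bp, from 52210728 to 52211038, in the Hoxa3 intron between Hoxa6 and the Hoxa3 TSS. Its summit lay within 80 bp, from 52216937 to 52217017, in an intron of Hoxa7, 435 to 515 bp downstream of its TSS at 52217452. The other end varied more, over 3334 bp, from 52227995 in GFI1-36N curcumin to 52231329 in GFI1-36S vehicle. A second peak followed in each, and a run of 77 bp at 52231330 to 52231406, near the 3′ end of Hoxa10, was the only part of the stretch that no library covered.

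A window at the lower edge of the wide peak is shown because a match to the binding motif of GFI1, AATCACNGC, lies in it. It is in capitals on the minus strand, with a match to the MEIS motif TGACAG also in capitals. The window holds the starts in GFI1-36S vehicle and GFI1-36N vehicle. Those in GFI1-36N curcumin (52210743) and GFI1-KD curcumin (52210728) lie just below it. This window was picked after the positions of the edges were seen.
Edge, chr6:52210749-52211048: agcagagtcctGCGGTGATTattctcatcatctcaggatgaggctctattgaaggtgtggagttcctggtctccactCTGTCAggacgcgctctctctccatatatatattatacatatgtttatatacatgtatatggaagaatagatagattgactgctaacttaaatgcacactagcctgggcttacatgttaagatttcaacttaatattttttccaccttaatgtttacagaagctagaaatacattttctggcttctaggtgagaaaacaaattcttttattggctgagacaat

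The GFI1 motif, searched on both strands, had 4 matches in the whole 105 kb interval, and this was the only one inside the long stretch. Its start at 52211029 was 301 bp above the lowest and 9 bp below the highest start of the wide peak. Over all 21229 coding promoter windows of 300 bp, 1.06% held a match, and none of the 9 windows of the members did. A CTCF motif, AGNNGGC directly preceded by CCNNN, had 20 matches in the interval, 8 of them in the long stretch, and 1 in the Hoxa11 promoter window, against 9.87% of all windows with a match. A PBX-HOX motif, TGATTNAT, was matched once, in the Hoxa2 window, and is held by 2.76% of all windows. The MEIS motif was matched in the Hoxa2 and Hoxa3 windows, with 18.7% over all windows. A match says only that the letters are present.

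At its summit the wide peak had a fold enrichment over local background of 37.63 in GFI1-36S vehicle, 39.36 in GFI1-36N vehicle, 47.07 in GFI1-36N curcumin and 41.89 in GFI1-KD curcumin. The highest peak of the stretch reached 10.41 in GFI1-KD vehicle. From fold enrichment and p-value together, the number of fragments piled at a summit could be recovered. These were 223 (95% Poisson interval 195 to 254), 273 (242 to 307), 271 (240 to 305) and 252 (222 to 285) in the same order, and 75 (59.0 to 94.0) in GFI1-KD vehicle. The intervals of the 4 overlap one another and lie apart from that of GFI1-KD vehicle. Scaled to each library's mean pile over the genome, the heights were 46.1, 46.1, 56.7 and 50.9 times background against 12.2, so that within GFI1-KD the curcumin library was 4.17-fold higher at its highest summit of the stretch. In the library labelled GFI1-36S curcumin no peak was called there, and the lowest peak of its list stood at 14 fragments, 3.04 times its background, against 12.2 times for the lowest of the other 5 libraries here.

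**Figure D2:**
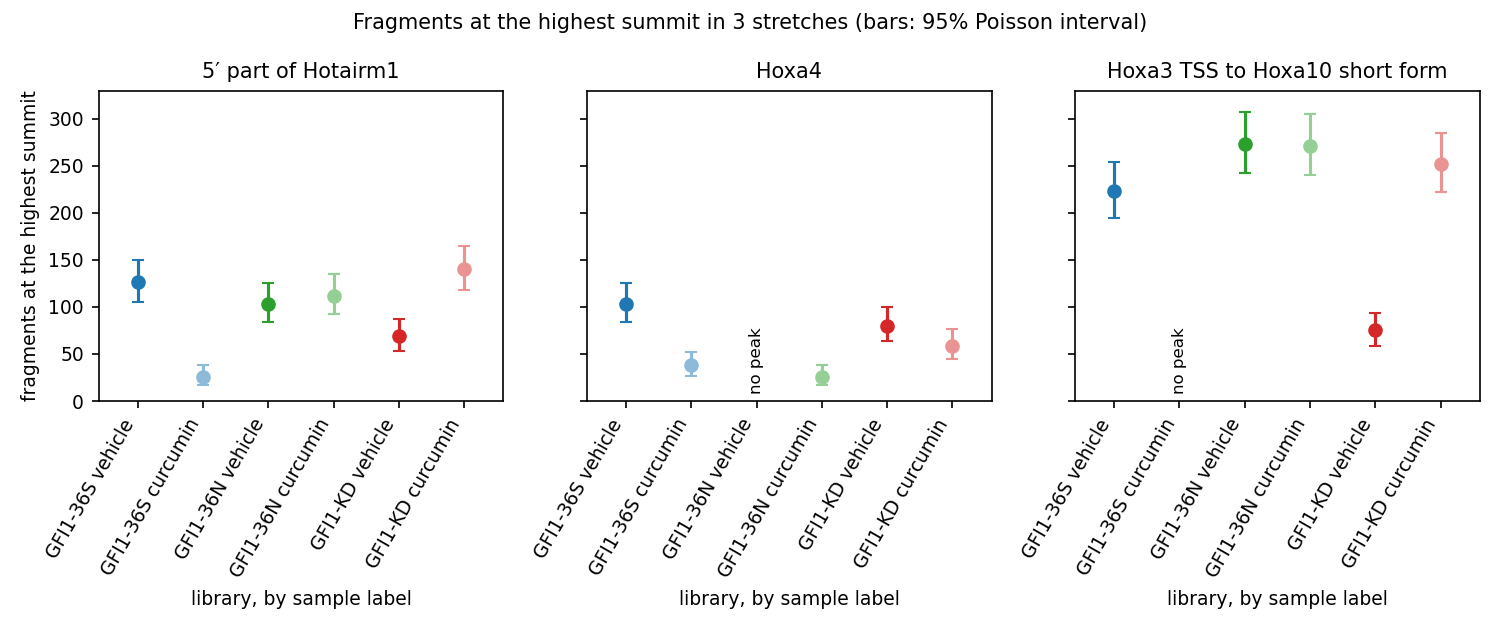
Fragments at the highest summit in 3 stretches of the interval, by library, with 95% Poisson intervals that cover counting error only. The third stretch runs from the Hoxa3 TSS to the downstream Hoxa10 TSS, where short form in the title means only the shorter annotated span. There 4 libraries lie between 223 and 273, GFI1-KD vehicle is at 75 and the library labelled GFI1-36S curcumin has no peak. At Hoxa4 GFI1-36N vehicle has none and GFI1-KD vehicle, at 80, lies between GFI1-KD curcumin and GFI1-36S vehicle.

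GFI1-KD vehicle kept part of the block as 10 peaks of 227 to 1088 bp, with 22 to 75 fragments and fold enrichments of 3.10 to 10.4. Of their summits, 2 lay in the intron of Hoxa3, 3 in Hoxa7 and 5 in Hoxa9. All 5889 bp that these peaks covered were also covered in the other 4 libraries with a block. The highest of them was not at the shared summit but at 52221621, between the coding parts of Hoxa7 and Hoxa9. It lay 2910 bp upstream of the nearest Hoxa7 TSS in the annotation used. It was still in an intron of Hoxa7, whose annotated span reaches 52221854. Over the shared summit window printed above, 65.3% of bases were covered in GFI1-KD vehicle, by a peak whose own summit lay 251 bp upstream of the TSS with 34 fragments.

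Gene by gene, the block gave each member it crossed the same peak. Hoxa9, the homeobox gene most closely tied to AML, had all of the 2001 bp around its downstream TSS (52226189) covered in the 4 libraries with the wide peak and 990 bp (49.5%) in GFI1-KD vehicle. Around its upstream TSS (52227370) the covered share was 100% in 3 libraries, 81.3% in GFI1-36N curcumin and 0% in GFI1-KD vehicle. Ranked by fold enrichment among all promoters with a peak in the same library, the strongest Hoxa9 promoter peak stood at percentile 97.4 in GFI1-36S vehicle, 99.4 in GFI1-36N vehicle, 99.7 in GFI1-36N curcumin, 99.2 in GFI1-KD curcumin and 11.0 in GFI1-KD vehicle. Hoxa7, which also acts in progenitor growth, and Hoxa3, best known from pharyngeal development, share that peak in the 4 libraries and so had the same percentiles. In GFI1-KD vehicle they had their own, percentile 7.20 with 34 fragments for Hoxa7 and percentile 8.64 with 43 fragments for Hoxa3. There the base of the Hoxa3 TSS and those of both downstream Hoxa7 TSSs were under a peak, but neither Hoxa9 TSS was.

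Mir196b, which lies within the annotated span of Hoxa9 on the side of Hoxa10 and encodes a microRNA that itself targets HOX transcripts, was fully covered in the 4 libraries with the wide peak. In GFI1-36N curcumin the peak over it was a separate one of 2483 bp. Its own bases were uncovered in GFI1-KD vehicle, although a peak lay within 1 kb, and in the library labelled GFI1-36S curcumin. The mature 5p product is shown with its seed, bases 2 to 8, in capitals.
mmu-miR-196b-5p, chr6:52230129-52230150, minus strand: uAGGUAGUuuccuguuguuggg

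Hoxa10, a regulator of myeloid and progenitor growth, was marked at 1 of its starts. Its downstream TSS had 1013 of 2001 bp covered in GFI1-36S vehicle, 964 bp in GFI1-36N vehicle and 613 bp in GFI1-KD curcumin, and none in the other 3 libraries. The upstream TSS at 52240854 had no covered base in any of the 6 libraries. The peak at the downstream TSS had its summit in a coding exon of Hoxa10, 779 to 861 bp downstream and within 82 bp in the 3 libraries. It held 86 fragments (68.8 to 106) in GFI1-36S vehicle, 67 (51.9 to 85.1) in GFI1-36N vehicle and 55 (41.4 to 71.6) in GFI1-KD curcumin, and these intervals overlap. In GFI1-36N curcumin a peak of 202 bp with 17 fragments in the untranslated region of Hoxa10, 2510 bp downstream of that TSS, was the only peak inside the gene. It did not reach a promoter of the annotation used. With the TSSs of the full annotation, Hoxa10 counted as marked in that library.

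**Figure D3:**
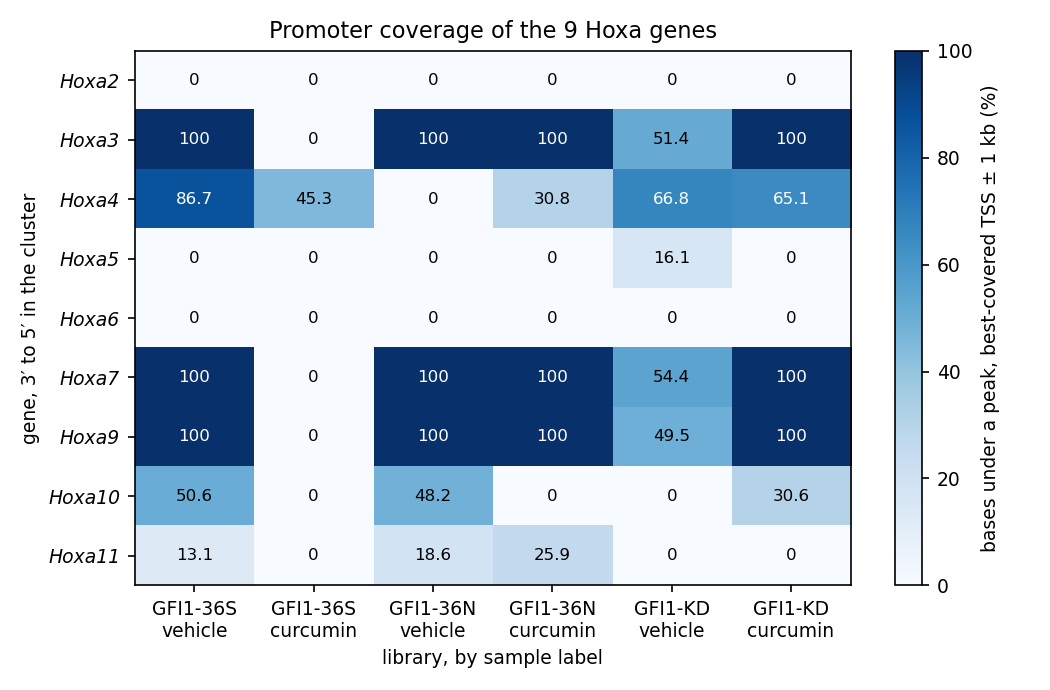
Share of bases under a peak in the 2 kb around the best-covered TSS of each member (rows, in chromosome order of the genes) in each library (columns), in percent. Hoxa3, Hoxa7 and Hoxa9 are at 100 in 4 libraries and at 49.5 to 54.4 in GFI1-KD vehicle, Hoxa2 and Hoxa6 are at 0 throughout, and Hoxa4 is the only member with coverage in the library labelled GFI1-36S curcumin.

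Hoxa4 behaved differently from the block. It had a promoter peak in every library but GFI1-36N vehicle, and it was the only member marked in the library labelled GFI1-36S curcumin. Its promoter peak with the most fragments held 103 fragments (84.1 to 125) in GFI1-36S vehicle, 80 (63.4 to 99.6) in GFI1-KD vehicle, 59 (44.9 to 76.1) in GFI1-KD curcumin, 38 (26.9 to 52.2) in the library labelled GFI1-36S curcumin and 26 (17.0 to 38.1) in GFI1-36N curcumin. The first and the last do not overlap, and neighbours in this order do. GFI1-KD vehicle was thus near the top at Hoxa4 and lowest of the marked libraries over the block.

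The Hoxa4 peaks came as a pair around the TSS at 52191753, whose own base was not covered in any library. One summit lay in the coding exon 174 to 201 bp downstream and the other 401 to 447 bp upstream, and each pair position agreed within 27 and 46 bp over 5 libraries. By fragments, the downstream peak was the higher of the pair in 4 libraries and the upstream one in GFI1-KD vehicle. By fold enrichment the upstream peak was also slightly higher in GFI1-KD curcumin, 9.28 against 9.14. Both also lie within an intron of Hoxa3, of whose span at most 9.73% was under a peak in any library.

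The remaining marked members had weak peaks. Hoxa11, a 5′ gene known for limb and reproductive tract development, had 19 fragments (11.4 to 29.7) in GFI1-36S vehicle, 27 (17.8 to 39.3) in GFI1-36N vehicle and 21 (13.0 to 32.1) in GFI1-36N curcumin, intervals that overlap. These stood at percentiles 1.71, 2.17 and 4.35 of promoter peaks in their libraries. They lie 668 to 1065 bp downstream of the Hoxa11 TSS, and the start of the antisense transcript Hoxa11os is within 1 kb of them, so the mark cannot be assigned to 1 of the genes. Hoxa5 had 1 peak of 323 bp, 425 bp downstream of its TSS, in GFI1-KD vehicle, with 29 fragments (19.4 to 41.6) and a fold enrichment of 4.12. Hoxa2, which patterns the hindbrain, had no covered base in any library, promoter or gene body, and the same was true of Hoxa6.

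A further site lay at the 3′ end of the interval inside Hotairm1, a noncoding RNA of the cluster that is induced as myeloid cells mature. Its summits were in the 5′ part of the gene, and peaks covered 13.4% to 57.7% of the gene. This site was the only one marked in all 6 libraries, with summits within 127 bp. It held 140 fragments (118 to 165) in GFI1-KD curcumin, 126 (105 to 150) in GFI1-36S vehicle, 112 (92.2 to 135) in GFI1-36N curcumin, 103 (84.1 to 125) in GFI1-36N vehicle, 69 (53.7 to 87.3) in GFI1-KD vehicle and 26 (17.0 to 38.1) in the library labelled GFI1-36S curcumin. The last 2 were the lowest here as over the block, but the gap between GFI1-KD vehicle and the next library was small at Hotairm1, where their intervals overlap.

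Outside the interval, the nearest peak below lay 63956 to 142596 bp away and the nearest peak above 31385 to 378449 bp away. A peak of 183 bp with 17 fragments crossed the upper end of the interval in GFI1-36N curcumin. The nearest protein-coding neighbours differed from each other. Skap2, an adaptor protein gene below the cluster, was marked at its promoter in each of the 6 libraries, at percentile 8.53 to 46.0, and Evx1, a homeobox gene above it, had none.

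Within GFI1-36S as labelled, 5 of the 6 members with a peak under vehicle, Hoxa3, Hoxa7, Hoxa9, Hoxa10 and Hoxa11, had none in the curcumin library, against 16.5% of all promoters with a vehicle peak. No member was marked under curcumin alone, against 2.38%. With the treatments exchanged, as the list names have them, the same 5 genes would be marked under curcumin and not under vehicle. At the shared member, Hoxa4, the percentile was 40.1 in the vehicle and 13.7 in the curcumin library. The marker lists moved with this comparison. The T cell list had 5 of 14 promoters with a peak under vehicle and 13 under curcumin, with summed fold enrichments of 27.2 and 148, the neutrophil list had 16 and 0 of 18 (149 and 0), and the stem and progenitor list had 10 and 2 of 12 (183 and 15.0). Among the markers without a peak in the curcumin-labelled library were Kit, Cd34, Gata2, Spi1, Mpo and Elane. The part of cell composition in the Hoxa result was not tested.

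Within GFI1-36N, 4 members (Hoxa3, Hoxa7, Hoxa9 and Hoxa11) were marked under both treatments. Hoxa10 was marked under vehicle alone, 1 of 5 members against 1.95% of all promoters, and Hoxa4 under curcumin alone, 1 of 5 against 5.84%. With the TSSs of the full annotation, Hoxa10 was marked under both. The Hoxa10 peak under vehicle had 67 fragments. The Hoxa4 peaks under curcumin had 26 and 17, in a list with a median of 24 and a lowest of 13. At the summit of the block both libraries had nearly the same number of fragments, 273 and 271, and their intervals overlap. Scaled to genome background, the heights were 46.1 (40.8 to 52.0) under vehicle and 56.7 (50.2 to 63.9) under curcumin. These intervals also overlap. Peaks covered 98.0% of the block under vehicle and 82.3% under curcumin, the missing bases being at the Hoxa10 end and in a gap within Hoxa9 near its upstream TSS.

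Within GFI1-KD, the same 4 members (Hoxa3, Hoxa4, Hoxa7 and Hoxa9) were marked under both treatments, Hoxa5 under vehicle alone (1 of 5, against 6.81% of all promoters) and Hoxa10 under curcumin alone (1 of 5, against 1.28%). The count of members is thus the same, 5 and 5, and the difference is in extent and height. Hoxa9 stood at percentile 11.0 under vehicle and percentile 99.2 under curcumin, Hoxa7 at percentile 7.20 and 99.2, Hoxa3 at percentile 8.64 and 99.2, whereas Hoxa4 went from percentile 21.8 to percentile 17.1. Beside this, neutrophil promoters with a peak numbered 17 and 10 of 18 (summed fold enrichment 212 and 97.6), erythroid promoters 9 and 4 of 9 (116 and 39.5), T cell promoters 3 and 2 of 14 (11.6 and 8.31), and stem and progenitor promoters 11 and 12 of 12 (187 and 165). Their part in the difference was not tested.

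Between genotypes under vehicle, GFI1-36S and GFI1-36N shared 5 members, and Hoxa4 was marked in GFI1-36S alone, against 3.51% of all promoters with a peak there. Hoxa10 and Hoxa11 were marked in GFI1-36S and not in GFI1-KD, 2 of 6 against 2.21%, and likewise in GFI1-36N and not in GFI1-KD, 2 of 5 against 2.51%. In the other direction, Hoxa5 was marked in GFI1-KD and not in GFI1-36S, 1 of 5 against 5.45%, and Hoxa4 and Hoxa5 in GFI1-KD and not in GFI1-36N, 2 of 5 against 6.09%. With the GFI1-36S treatments exchanged, the balance of both comparisons with GFI1-36S turns. Hoxa4 alone would then be marked in GFI1-36S vehicle, while 5 members would be marked in GFI1-36N and not in GFI1-36S, and 4 in GFI1-KD and not in GFI1-36S. These comparisons share libraries and are not independent of one another.

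Under curcumin, 4 of the 5 members of GFI1-36N and 4 of the 5 of GFI1-KD were unmarked in the library labelled GFI1-36S curcumin, against 19.0% and 15.1% of all promoters. With the treatments exchanged none of them would be, and GFI1-36S would have 1 member more than each, Hoxa10 against GFI1-36N and Hoxa11 against GFI1-KD. Without that library the curcumin comparison is GFI1-36N with GFI1-KD. They shared Hoxa3, Hoxa4, Hoxa7 and Hoxa9, with Hoxa11 in GFI1-36N alone (1 of 5, against 7.13%) and Hoxa10 in GFI1-KD alone (1 of 5, against 1.33%). With the TSSs of the full annotation, both had Hoxa10 marked. At the summit of the block, 271 and 252 fragments had overlapping intervals.

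The other HOX clusters, which the choice of region did not use, showed 3 different pictures. In the Hoxc cluster 4, 1, 5, 5, 0 and 5 of 9 genes had a promoter peak, in the order GFI1-36S vehicle and curcumin, GFI1-36N vehicle and curcumin, GFI1-KD vehicle and curcumin. As over the Hoxa block, the low libraries were GFI1-KD vehicle, with no peak in the whole cluster, and the library labelled GFI1-36S curcumin. Peaks covered 15.0%, 1.23%, 28.7%, 35.5%, 0% and 32.1% of the Hoxc cluster, which is more than over Hoxa in both GFI1-36N libraries and GFI1-KD curcumin, so that a large covered share was not particular to Hoxa. GFI1-36S vehicle lay below the GFI1-36N libraries, unlike over Hoxa. Hoxc4 and Hoxc5 reached percentile 99.2 in GFI1-36N curcumin. In the Hoxb cluster 5, 1, 4, 4, 3 and 4 of 10 genes were marked, with Hoxb4, a gene of stem cell self-renewal, in all 6 libraries at percentile 45.2 to 70.1, GFI1-KD vehicle being the lowest. In the Hoxd cluster no gene of 9 had a promoter peak in any library. The widest Hoxb and Hoxc peaks were 7123 and 9911 bp, less than the Hoxa block.

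**Figure D4:**
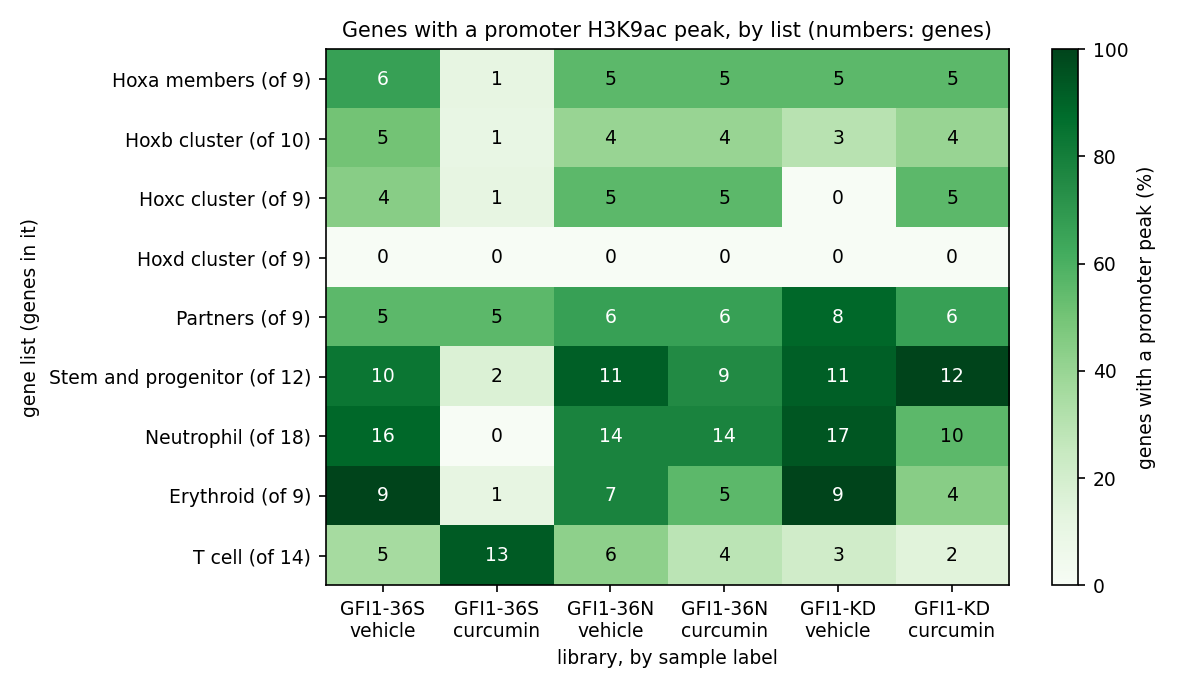
Genes with a promoter H3K9ac peak in each list (rows, with the number of genes) and library (columns). Colour gives the share in percent and numbers give the genes. The Hoxa row is lowest in the library labelled GFI1-36S curcumin, 1 of 9, and the Hoxc row in GFI1-KD vehicle, 0 of 9, which has the highest neutrophil count, 17 of 18.

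Among genes of HOX cofactors, the promoter of Pbx3 was marked throughout, in a pattern like that of Hoxa9. Its percentiles were 93.1, 30.9, 94.9, 99.8, 48.4 and 99.9 in the order above, so both were lowest in the library labelled GFI1-36S curcumin and next lowest in GFI1-KD vehicle. Genes of other loci were ordered by the distance of their percentiles from those of Hoxa9 over the 6 libraries, a library with no peak counting as 0. Pbx3 was the second nearest of these at 48.9, after Dalrd3 at 30.9, with 12557 genes compared. The next 3, at 55.7, were Cdnf, Gm45902 and Hspa14, which share 1 promoter region. Meis1, the other main cofactor of Hoxa9 in leukaemia, had a peak in GFI1-36N vehicle, GFI1-KD vehicle and GFI1-KD curcumin at percentiles 14.4, 11.4 and 14.0 and none in the others, so it did not follow Hoxa9. Of 9 cofactor genes 5, 5, 6, 6, 8 and 6 were marked, with the highest count in GFI1-KD vehicle. All 16 genes of the trithorax and MLL group, whose proteins keep HOX genes active, and all 16 of the Polycomb list had a promoter peak in every library. Most of the Polycomb list encode proteins that silence HOX genes, but Kdm6b encodes a demethylase that removes the Polycomb mark.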

How the data were processed

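H3K9ac ChIP-seq peaks of 6 libraries were used, out of 8 samples in the series. The input and IgG samples were not analysed here. Per the methods and the submitters' notes, the authors trimmed reads with Trim Galore, aligned them to mm10 with BWA, used SAMtools, Picard and deepTools, called peaks with MACS2 separately in each library and removed blacklisted regions. Tool versions, the control behind each list and the calling threshold are not given in the sources used here. In the deposited lists the authors give each peak's fold enrichment at its summit (a ratio to local background), its −log10 p-value and −log10 q-value, a score, and its summit offset. Read depth is not given. As MACS2 derives fold enrichment and p from the same pile and background, the whole number of fragments at each summit was recovered from both within 0.002 on the −log10 scale for 100.0% of peaks in every library, and exact 95% Poisson intervals were computed, which cover counting error only since duplicates could not be assessed. This relation and the promoter overlaps were tested on simulated data.

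A promoter was 1 kb on each side of any TSS of the basic GENCODE M21 annotation (GRCm38), and 1 bp of overlap was enough. Peaks within 1 kb of each other over all libraries were joined into stretches, and summits within 250 bp into sites. Scripts used Python 3.11.15, numpy 2.4.6, pandas 2.3.3, scipy 1.17.1, matplotlib 3.10.9 and samtools for sequence. Members, gene lists and comparisons were chosen with earlier results of these data known. The named genes are the 9 members, their nearest neighbours, noncoding and other HOX genes with peaks, Meis1, Pbx3, Gfi1 and the 5 genes of other loci nearest to Hoxa9 in pattern. Single cell type markers named beside a result, and Kdm6b, come from the lists used and were picked after their values were seen. All genes of the sex marker list are named. With 1 library per group there was no test between groups. Other markers gave 1, 0, 1, 1, 3 and 1 of 9 B cell and 8, 1, 8, 7, 8 and 8 of 8 monocyte promoters with a peak, in the order GFI1-36S, GFI1-36N, GFI1-KD, vehicle before curcumin. Alternatives were stricter q-values, equal numbers of peaks, other promoter rules and exchanged GFI1-36S treatments.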

Additional observations from a re-analysis of the deposited data

Results flagged for a closer look

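The share of the Hoxa interval covered by peaks moved in opposite directions with curcumin in the 3 genotypes. Curcumin minus vehicle was 17.9 percentage points in GFI1-KD, -2.24 in GFI1-36N and -26.1 in GFI1-36S as labelled. With the treatments of the GFI1-36S lists exchanged, the last value would have the opposite sign. Each is the difference of 2 single libraries, and the difference between genotypes was not tested.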

How the results depend on the processing

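No replicate could be left out, with 1 library per group, and no paired analysis was possible because no group has a second library. Of 206 values computed under alternatives, 152 stayed within 1.5 times the main count, its counting interval or at the same peak, 48 moved and 6 reversed. The 2 alternatives with the TSSs of the full annotation or with 1 height threshold for all lists were chosen after seeing the data. The latter could move no value, as its threshold, 3.04 times background, lay below every Hoxa peak, the lowest at 3.56. Giving the highest fold enrichment as a rank among all peaks could move no value either, as it kept the same peak. The peak thresholds tried could not have removed the wide Hoxa block, whose −log10 q was 245 to 357.

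With the GFI1-36S treatments exchanged, the vehicle library had 1 member, 1.53% of the interval and a highest fold enrichment of 6.44, the curcumin library 6 members, 27.7% and 37.6. The members marked in 1 library of a pair then numbered 5 within GFI1-36S, 6 and 4 for its vehicle library against GFI1-36N and GFI1-KD, and 1 and 1 for its curcumin library, all in the reverse direction.

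The covered share moved beyond that interval at −log10 q of 5 to 27.1% (GFI1-36S vehicle), 22.7% (GFI1-36N curcumin) and 6.84% (GFI1-KD vehicle). At 10 it moved to 26.9% (GFI1-36S vehicle), 0.552% (GFI1-36S curcumin), 25.1% (GFI1-36N vehicle), 21.6% (GFI1-36N curcumin) and 6.54% (GFI1-KD vehicle). With 20354 top peaks in each list it was 27.1%, 25.1%, 21.6% and 6.54% in the same libraries without GFI1-36S curcumin. From Hoxa2 to Hoxa11 alone it was 31.3%, 1.09%, 28.9%, 25.5%, 9.05% and 29.5%.

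Counts of members moved to 3 in GFI1-36N curcumin at −log10 q of 10 and with equal numbers of peaks, where Hoxa4 and Hoxa11 were lost. With the summit required inside the promoter they were 3 in GFI1-36N vehicle, 2 in GFI1-36N curcumin and 3 in GFI1-KD curcumin, since the 1 summit of the block lies at Hoxa7, which loses Hoxa3 and Hoxa9, and the Hoxa11 summit in GFI1-36N curcumin lies 1065 bp from its TSS. Under that rule the members that differed within a pair numbered 3 for GFI1-36S, 4 for GFI1-KD, 1 and 2 for GFI1-36S curcumin against GFI1-36N and GFI1-KD, 1 between the latter, and 5 for GFI1-36S against GFI1-KD vehicle, in the reverse direction. GFI1-36S against GFI1-36N vehicle gave 2 at −log10 q of 5 and with 500 bp promoters. At 10 and with equal numbers of peaks the counts were 1 within GFI1-36N, 1 within GFI1-KD, 1 for GFI1-36S and 2 for GFI1-36N against GFI1-KD vehicle. With the most upstream TSS only, or the full annotation, they were 1 within GFI1-36N and 1 between the curcumin libraries of GFI1-36N and GFI1-KD. Under both rules Hoxa10 no longer differed in these pairs, which left Hoxa4 in the former and Hoxa11 in the latter. Other causes were not tested. Read depth is not given. Where a weak peak is missing from a list, such as those of Hoxa5 and Hoxa11, absence and a missed peak therefore cannot be told apart.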
